A study of Caenorhabditis elegans with 26 samples.

Results

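Small-RNA reads were described on 9 genes that build or start the meiotic chromosome axis and the synaptonemal complex of Caenorhabditis elegans: htp-3, htp-1, htp-2, him-3, rec-8, syp-1, syp-2, syp-3 and spo-11. They were chosen by the known function of their proteins, from 22271 genes in the count table, but with earlier results of these data known. Reads came from whole worms of 3 untethered genotypes with 2 libraries each. They are wild type (WT), a single mutant with an allele of the mutator scaffold gene mut-16, named mut-16(DE6R), and a double mutant that carries this allele together with an rde-3 mutation, named rde-3 mut-16(DE6R). The worms were untreated, per the labels. Age, stage and the lesion behind either allele were not found in the labels. Nothing says that the libraries of a genotype came from separate cultures, so the spread between them may be technical. It was small, with a chi-square per degree of freedom of 1.52, 1.11 and 1.13 in WT, the single mutant and the double mutant. P-values below are measured against this spread, so small ones do not show replication between cultures.

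In the meiotic germline, sister chromatids are held by cohesin with the kleisin REC-8 and are organised along an axis of HORMA domain proteins, HTP-3, HTP-1, HTP-2 and HIM-3. The SYP proteins then form the central region that joins paired homologues, and SPO-11 makes the DNA breaks from which crossovers arise. Transcripts of many genes expressed in the germline are templates for 22G-RNAs, antisense small RNAs made by RNA-dependent RNA polymerases. Those bound by the Argonaute CSR-1 are known for covering expressed germline genes, whereas those made in mutator foci, the granules that MUT-16 organises, silence their targets. RDE-3 tails RNAs that become templates in the mutator pathway. A small-RNA read count on a gene is therefore not its mRNA level, and in whole worms fewer germ cells and fewer small RNAs per cell cannot be told apart.

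The 6 libraries held between 515300 and 1571194 reads. A single gene, F56H9.8, took 51.7 and 49.5% of them in WT, 37.6 and 37.5% in the single mutant and 55.5% in each double-mutant library. Mitochondrial genes took 2.41 and 2.2% in WT, 4.39 and 4.3% in the single mutant and 4.39 and 4.58% in the double mutant. The 9 genes together held between 664 and 2374 reads per library. Levels are given as CPM, the read count relative to a library size corrected with TMM factors, which centre the bulk of genes between libraries. The factors were 0.582 and 0.593 in WT, 1.35 and 1.34 in the single mutant and 1.26 and 1.27 in the double mutant. Every comparison with WT therefore rests on a large correction that goes with genotype. Reads on the mutated genes do not check the genotypes: mut-16 held 7, 7 and 15 reads in WT, the single mutant and the double mutant, and mut-2, the gene of RDE-3, held 1, 7 and 2. Tissue marker lists moved between the genotypes, and their part in the results below was not tested. The summed level of 12 intestine genes was 61.3 to 78.1 CPM in WT, 282 to 311 CPM in the single mutant and 621 to 724 CPM in the double mutant, with vit-6, cpr-1 and elt-2 at 0 reads in WT, ges-1 at 0 in the single mutant and elt-2 at 0 in the double mutant. That of 7 body wall muscle genes was 37.4 to 39.7, 73.8 to 75 and 217 to 229 CPM in the same order, with lev-11 at 0 in both mutants. That of 6 neuron genes was 321 to 331, 124 to 138 and 20.2 to 23.1 CPM, with ric-4 at 0 throughout, unc-13 at 0 in WT and the double mutant, and ida-1 at 0 in the double mutant. By edgeR 8 of 9 tested intestine genes, 2 of 5 muscle genes and 1 of 4 neuron genes were higher in the single mutant against WT, and 9 of 9, 5 of 5 and 0 of 4 in the double mutant against WT, with 3 of 4 neuron genes lower in each. Of all tested genes 22.1 and 26.8% were higher and 36.6 and 37.9% lower in these comparisons. The intestine list held 104 reads and the muscle list 57 in WT, and the neuron list held 30 in the double mutant. These are too few for all tested markers to pass the filter on low counts there. Some markers were thus tested only because they were high in another genotype, which partly fixed these counts of calls in advance. Of 8 sperm genes, 3 had no read in any library (msp-3, msp-10 and msp-56) and the sum stayed between 0 and 7.62 CPM, with msp-49 and msp-142 also at 0 in WT and the double mutant, and msp-19 at 0 in both mutants.

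All reads of each of the 9 genes were listed under 1 transcript, although rec-8 has 3 transcripts in the table and syp-3 and spo-11 have 2 each. The genes lie on chromosome I (htp-3, 4827072 to 4829791, and syp-3, 8663045 to 8664445), chromosome IV (htp-1, 5390189 to 5391557; htp-2, 6419522 to 6420898; him-3, 6977508 to 6978765; rec-8, 13349122 to 13353193; spo-11, 11123133 to 11124862) and chromosome V (syp-1, 16404274 to 16407701, and syp-2, 5536487 to 5537717) of WBcel235. Coding sequences of htp-1 and htp-2 are equally long at 1056 bases, in 4 exons each, and the proteins are known as near-identical paralogues. How reads that match both were assigned is not stated in the labels, so values of either gene are uncertain. Of the 9 genes, 4 overlap other annotated genes. On the opposite strand prkl-1 shared 24 bases with him-3 and held 11 reads over the 6 libraries, enpl-1 shared 23 bases with spo-11 and held 10 reads, and mrt-1 shared 61 bases with syp-3 and held 195 reads, more than syp-3 itself. The gene F13A7.14 overlapped syp-1 by 1075 bases on the same strand, 517 of them exonic, and held 2 reads.

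Per length, the axis genes carried the most reads. In WT htp-1 stood first with 355 ± 3.8 CPM per kb of transcript (SD, n = 2), above 94.1% of the 5312 genes tested, whose median was 31.1 CPM per kb. Next came him-3 with 98.4 ± 9.21, htp-3 with 91 ± 10.4 and htp-2 with 76.4 ± 12.4 CPM per kb (SD, n = 2 each). The libraries of him-3 and htp-3 overlapped, as did those of htp-3 and htp-2, so these neighbours did not differ beyond their spread. The central region gene syp-2 had 37.5 ± 4.7, syp-1 19.1 ± 2.83 and the cohesin gene rec-8 12.7 ± 0.899 CPM per kb (SD, n = 2 each). These levels were separate from each other. Last were syp-3 with 4.26 ± 1.49 and spo-11 with 2.87 ± 0.378 CPM per kb (SD, n = 2 each), each from 6 WT reads, too few to order them. In both mutants htp-1 again stood first, at 386 ± 3.81 and 420 ± 37.1 CPM per kb (SD, n = 2 each). The order from syp-2 through syp-1 to rec-8 was that of WT in both mutants too. At the other end, spo-11 and syp-3 were the lowest of the 9 in all 3 genotypes.

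**Figure D1:**
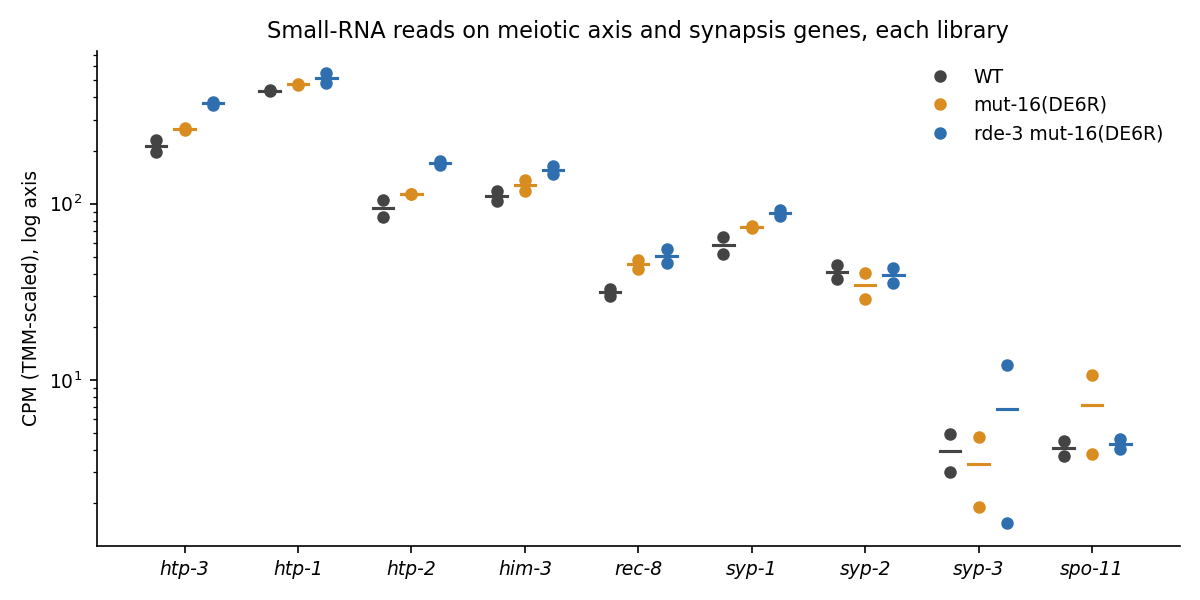
Level of each of the 9 genes in CPM (log axis) by genotype, with 1 point per library and a bar at the mean of 2 libraries. Libraries of htp-3 rise from 196 and 230 CPM in WT to 364 and 377 CPM in the double mutant, whereas those of syp-2 overlap in all 3 genotypes.

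Of the 9 genes, 7 were tested. Each of these passed the filter on low counts in both libraries of every genotype, so none entered through the genotype in which it was high. The other 2, syp-3 and spo-11, did not pass it. Genes were called higher or lower at an adjusted p under 0.05 over all 5312 genes tested.

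With TMM scaling, small RNAs on most of the tested axis and synapsis genes were called more abundant in the double mutant than in WT. Only the calls of htp-3 and htp-2 held under every other scaling, fit or set of libraries tried. By edgeR 6 of the 7 tested genes rose, from 1.18-fold at htp-1 to 1.78-fold at htp-2, whereas the central region gene syp-2 did not pass. For the single mutant against WT htp-3 alone among the 7 passed, at 1.26-fold, but this count depended on scaling, which shifts all genes together. With library totals all 7 were called higher beside 63.9% of all tested genes, and 6 were called with mitochondrial reads or upper quartiles, beside 32.6 and 39.7%. In counts, 1 of 7 tested genes, htp-3, was higher in the single mutant against WT, where 22.1% of all tested genes were called higher and 36.6% lower. The share of the 7 was near that background. For the double mutant against WT 6 of 7 were higher, all but syp-2, against 26.8% of all tested genes called higher and 37.9% lower. Between the mutants 3 of 7 were higher, htp-3, htp-2 and him-3, against 16.5% called higher and 26.2% lower. By edgeR 0 of the 7 were lower in each comparison, also 0 at an unadjusted p under 0.05 and 0 by DESeq2. DESeq2 called 0 genes higher in the first comparison (0 also at an unadjusted p under 0.05), 2 in the second (htp-3 and htp-2) and 1 in the third (htp-3), beside 9.07, 14.1 and 4.09% of all tested genes. With no filter on low counts the count between the mutants was 0, beside 0.866% of all genes then tested. Leaving out WT library 1 took the 6 of the second comparison to 3, beside 21.1% of all genes. Leaving out WT library 2 or single-mutant library 2 took the 1 of the first to 0, beside 15.9 and 14.6%. The first 2 comparisons share the WT libraries, and the third shares both mutants with them, so these counts do not stand on separate data.

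Among the axis genes, htp-3 encodes the HORMA protein that the other axis HORMA proteins need for loading. Its levels by library were 230 and 196 CPM in the WT libraries, 261 and 270 CPM in the single mutant and 377 and 364 CPM in the double mutant. The 3 genotypes did not overlap, with WT lowest and the double mutant highest. By edgeR's quasi-likelihood test reads rose in the single mutant against WT (log2 fold change 0.33, SE 0.11, adjusted p = 0.0057), in the double mutant against WT (0.81, SE 0.12, adjusted p = 1.81e-11) and in the double mutant against the single mutant (0.47, SE 0.10, adjusted p = 1.45e-05), the last not called with no filter on low counts (0.17, adjusted p = 0.668). The first of these calls rested on single libraries: it was lost without WT library 2 (0.22, adjusted p = 0.175), without single-mutant library 2 (0.30, adjusted p = 0.0952) and by DESeq2 (0.31, adjusted p = 0.119), and ranged from 0.22 to 1.53 with adjusted p up to 0.175 over the alternatives.

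The paralogues htp-1 and htp-2 encode HORMA proteins of the axis; HTP-1 links pairing to synapsis and protects sister cohesion. At htp-1 levels by library were 434 and 440 CPM for WT, 471 and 478 CPM for the single mutant and 549 and 485 CPM for the double mutant. The genotypes did not overlap, but the steps were small. Only the double mutant against WT passed for htp-1 among the 3 comparisons (log2 fold change 0.24, SE 0.10; edgeR adjusted p = 0.0222). This call was lost in 6 of 15 alternatives, among them without WT library 1 (0.20, adjusted p = 0.0724) and without double-mutant library 1 (0.15, adjusted p = 0.275), and adjusted p reached 0.275 over the alternatives. The value was 0.12 (SE 0.09) in each of the other comparisons, and that against the single mutant turned to −0.02 when scaled to mitochondrial reads and was 0.03 without double-mutant library 1.

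At htp-2 levels by library were 83.7 and 105 CPM for WT, 113 and 114 CPM for the single mutant and 174 and 166 CPM for the double mutant. WT and the single mutant were close, and the double mutant stood apart from both. Reads on htp-2 rose in the double mutant against WT (log2 fold change 0.83, SE 0.16, edgeR adjusted p = 1.15e-06) and against the single mutant (0.57, SE 0.14, adjusted p = 0.000177). The latter was not called by DESeq2 (0.54, adjusted p = 0.063) or with no filter on low counts (0.27, adjusted p = 0.495). The value was 0.25 (SE 0.16) in the single mutant against WT and did not pass; it was 0.10 without WT library 1 and 0.44 without WT library 2. Counted as 1 gene, htp-1 and htp-2 had log2 fold changes of 0.15 (SE 0.08), 0.36 (SE 0.09) and 0.22 (SE 0.08) in the single mutant against WT, the double mutant against WT and the double mutant against the single mutant, with edgeR adjusted p of 0.122, 0.000104 and 0.0205.

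Within a library the split between the paralogues does not depend on scaling. Of the reads on htp-1 and htp-2, htp-2 held 16.2% (95% Wilson interval 12.7 to 20.4%) and 19.3% (15.9 to 23.3%) in the WT libraries. It held 19.3% in both single-mutant libraries, with intervals of 16.1 to 23.1% and 17.2 to 21.6%. In the double mutant it held 24% (20.4 to 28.1%) and 25.5% (21.8 to 29.6%). The double mutant lay above the other genotypes in both libraries, although with 2 libraries against 2 an exact two-sided permutation test cannot go below p = 0.333. Intervals cover counting error only, since reads without molecular identifiers are not independent molecules.

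The axis gene him-3 encodes a HORMA protein needed for synapsis. Levels of him-3 were 103 and 118 CPM for WT, 136 and 118 CPM for the single mutant and 163 and 148 CPM for the double mutant. WT and the single mutant overlapped, and the double mutant was higher than both. Reads rose against WT in the double mutant (log2 fold change 0.48, SE 0.16, edgeR adjusted p = 0.00507) and against the single mutant (0.33, SE 0.14, adjusted p = 0.0434), and the value was 0.15 (SE 0.15) in the single mutant against WT, which did not pass. That value was 0.06 without WT library 1, 0.26 without WT library 2, 0.08 without single-mutant library 1 and 0.29 without single-mutant library 2. The call against WT was lost without WT library 1 (0.38, adjusted p = 0.07) and without double-mutant library 1 (0.42, adjusted p = 0.0516), with adjusted p up to 0.11 over the alternatives. That against the single mutant was lost in 9 of 16 alternatives, among them without single-mutant library 2 (0.20, adjusted p = 0.461) and without double-mutant library 1 (0.27, adjusted p = 0.249) or 2 (0.38, adjusted p = 0.0856); adjusted p ranged up to 1.

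The kleisin gene rec-8 had few reads, 22 and 24 in the WT libraries. Its levels were 32.9 and 29.8 CPM for WT, 47.6 and 42.8 CPM for the single mutant and 46.1 and 55.3 CPM for the double mutant. Both mutants lay above WT and overlapped each other. Reads rose in the double mutant against WT (log2 fold change 0.71, SE 0.29, edgeR adjusted p = 0.0219). The values were 0.51 (SE 0.26, adjusted p = 0.0807) in the single mutant against WT and 0.20 (SE 0.23) between the mutants, the latter 0.04 without double-mutant library 2. The rise was not called without WT library 1 (0.75, adjusted p = 0.0507) or 2 (0.63, adjusted p = 0.121) or without double-mutant library 2 (0.54, adjusted p = 0.196), with adjusted p up to 0.196 over the alternatives.

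SYP-1, SYP-2 and SYP-3 depend on each other to form the central region between homologues. At syp-1 levels by library were 64.3 and 52.1 CPM for WT, 75 and 72.8 CPM for the single mutant and 92.3 and 85 CPM for the double mutant. The genotypes did not overlap, with WT lowest. Reads on syp-1 rose in the double mutant against WT (log2 fold change 0.62, SE 0.21, edgeR adjusted p = 0.00687), a call lost without WT library 2 (0.46, adjusted p = 0.12), with adjusted p up to 0.124 over the alternatives. It was 0.35 (SE 0.19) in the single mutant against WT and 0.27 (SE 0.18) between the mutants, neither of which passed; the former was 0.19 without WT library 2.

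At syp-2 levels by library were 37.4 and 44.6 CPM for WT, 40.5 and 28.6 CPM for the single mutant and 35.4 and 43.2 CPM for the double mutant. All 3 genotypes overlapped. The log2 fold changes of syp-2 were −0.36 (SE 0.26), −0.06 (SE 0.29) and 0.29 (SE 0.27) in the single mutant against WT, the double mutant against WT and the double mutant against the single mutant, and none passed by edgeR. Both negative values turned positive when scaled to library totals (0.83 and 1.04, edgeR adjusted p = 0.00159 and 0.00051), to totals without F56H9.8 (0.50 and 1.19) or with upper quartiles (0.04 and 0.47). Of the reads on syp-1 and syp-2, syp-2 held 36.8 and 46.2% in the WT libraries, 35.1 and 28.2% in the single mutant and 27.7 and 33.7% in the double mutant. The WT libraries were the highest. The Wilson interval of WT library 1 (26.3 to 48.6%) held the values of all 4 mutant libraries, whereas that of WT library 2 (35.5 to 57.1%) held none of them.

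Reads were near the limit of detection at syp-3 and at spo-11, the gene of the topoisomerase-like enzyme that cuts meiotic DNA. At syp-3 there were 2 and 4 reads in WT, 4 and 4 in the single mutant and 1 and 9 in the double mutant. The lowest and the highest of the 6 counts of syp-3 were both in the double mutant. At spo-11 there were 3 and 3 reads in WT, 9 and 8 in the single mutant and 3 and 3 in the double mutant. The ratio of the double mutant to WT after scaling was 1.77 for syp-3 (95% counting interval 0.582 to 5.92) and 1.06 for spo-11 (0.284 to 3.97), and that of the single mutant to WT was 0.669 (0.204 to 2.34) and 1.42 (0.535 to 4.4). A difference was not detectable at this depth for either gene.

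**Figure D2:**
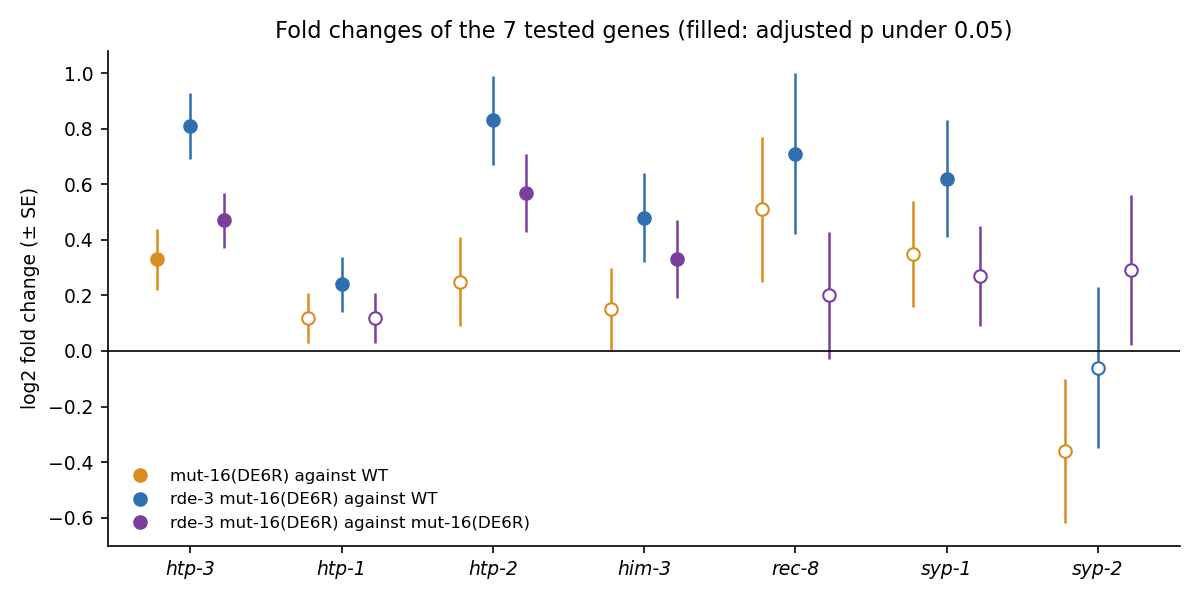
Log2 fold change of each of the 7 tested genes in the 3 comparisons, with bars of 1 SE; filled points passed at an adjusted p under 0.05. In the double mutant against WT 6 genes are filled and syp-2 lies at −0.06.

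By non-overlap alone, both libraries of the first-named genotype lay above both of the other for 5 of the 7 genes in the single mutant against WT, 6 in the double mutant against WT and 5 in the double mutant against the single mutant. Among all tested genes this held for 33.8, 38.7 and 31.5% in the same order. The genes that overlapped were him-3 and syp-2, syp-2, and rec-8 and syp-2.

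The median log2 fold change of the 7 genes was 0.25, 0.62 and 0.29 in the 3 comparisons, in the order above, against −0.09, −0.03 and −0.02 over all tested genes. The first of these medians was 0.10 without WT library 1, against −0.12 over all tested genes. The distribution of all genes had a long lower tail: 28.4, 35.5 and 28.5% of tested genes had a log2 fold change under −1. Most of the 7 genes lay within the peak of that distribution. Between their lowest and highest values stood 34.3, 32.9 and 26.8% of all tested genes, and above their medians 35.9, 27.1 and 29.5%.

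**Figure D3:**
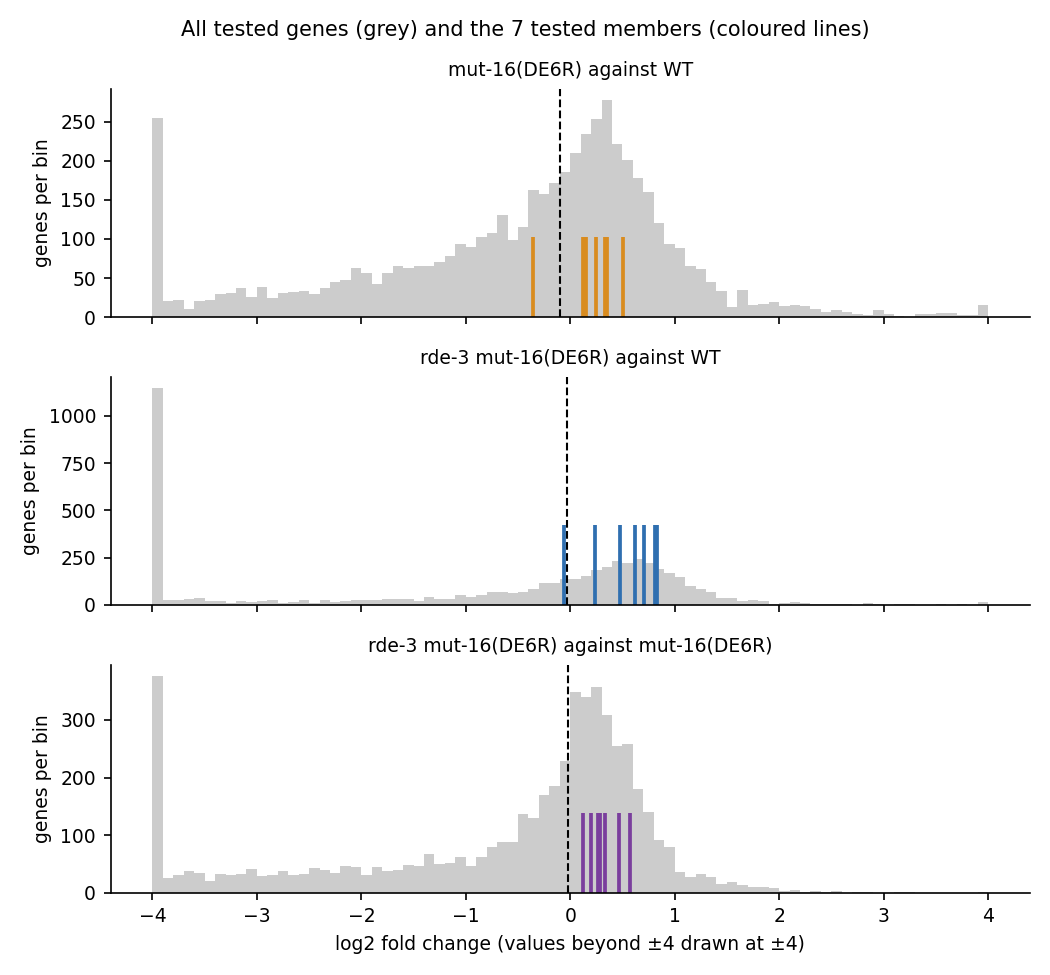
Number of tested genes by log2 fold change in bins of 0.1 (grey, values beyond ±4 drawn at the ends) in the 3 comparisons, with the 7 tested members as coloured lines and the median of all genes dashed. The members fall between −0.36 and 0.51, −0.06 and 0.83, and 0.12 and 0.57 in the 3 panels from the top.

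The size of these fold changes depended on how libraries were scaled. For the double mutant against WT the median of all tested genes, −0.03 with TMM, was 1.06 when libraries were scaled to their totals and 1.22 when F56H9.8 was left out of the totals. It was 0.10 on the basis of mitochondrial reads and 0.50 by upper quartiles. Under the same 4 scalings the median of the 7 genes was 1.72, 1.87, 0.75 and 1.15. For the single mutant against WT the 4 values were 1.09, 0.76, 0.18 and 0.30 over all tested genes and 1.44, 1.11, 0.53 and 0.65 over the 7. The median of the 7 was above 0 in all 3 comparisons under each of the 6 scalings. A scaling shifts all genes together, so the distance to the median of all genes is nearly fixed by construction over the 6, at 0.35, 0.65 and 0.32 with TMM, and says nothing of stability. With no filter on low counts it was 0.62, 1.23 and 0.50. The 9 genes made up 0.119 and 0.117% of the reads outside F56H9.8 in the WT libraries, 0.252 and 0.242% in the single mutant and 0.409 and 0.388% in the double mutant.

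**Figure D4:**
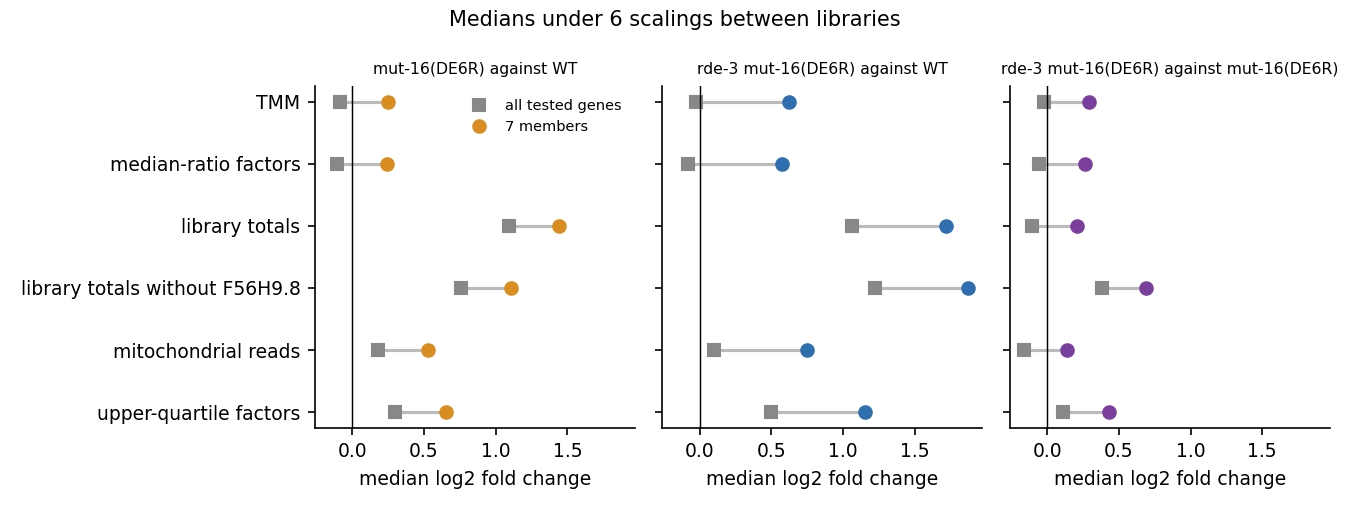
Median log2 fold change of the 7 tested genes (circles) and of all tested genes (squares) under 6 scalings between libraries, 1 panel per comparison. In the double mutant against WT the circles range from 0.57 to 1.87 and the squares from −0.08 to 1.22; scaling moves both together.

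Shares within the set do not depend on scaling either, and their differences were not tested. The 4 HORMA genes held 86.1 ± 0.495%, 85.7 ± 1.48% and 86.4 ± 1.56% of the reads of the 9 genes in WT, the single mutant and the double mutant (SD, n = 2 each). The central region genes held 10.3 ± 0.212%, 9.77 ± 0.891% and 9.63 ± 0.948% (SD, n = 2 each). The share of htp-1 in the reads of the 9 genes was 44 ± 0.424%, 41.5 ± 1.13% and 36.8 ± 1.84%, and that of htp-3 was 21.4 ± 2.47%, 23.2 ± 0.99% and 26.4 ± 0.424% (SD, n = 2 each). The share of him-3 was 11.1% on average in each genotype.

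**Figure D5:**
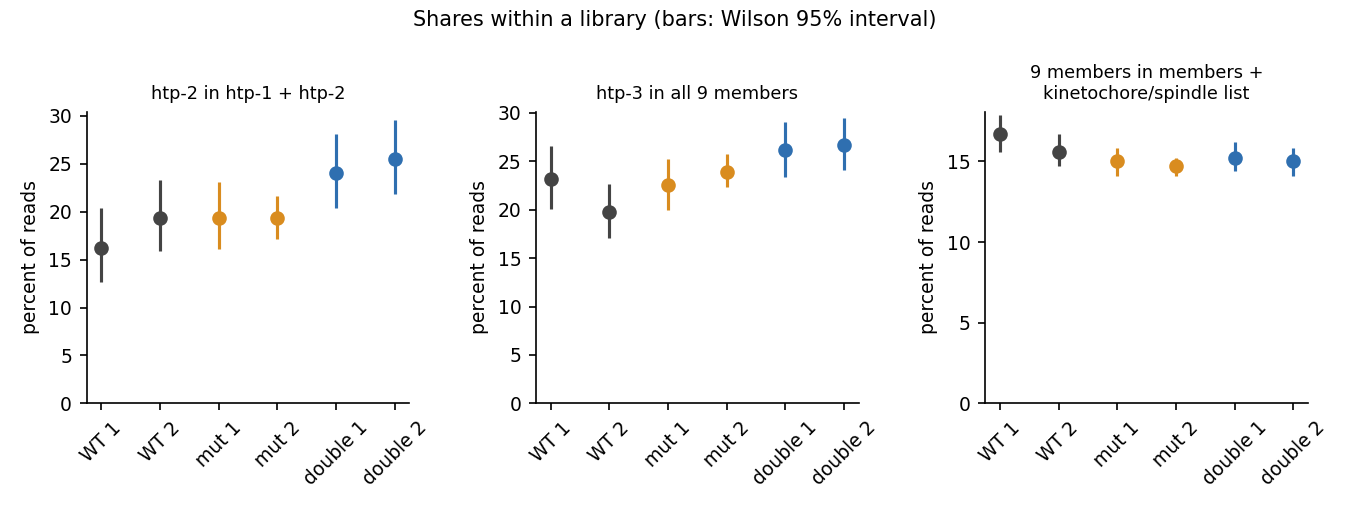
Shares of reads within each library, with Wilson 95% intervals: htp-2 among reads of htp-1 and htp-2, htp-3 among reads of the 9 genes, and the 9 genes among their own reads plus those of 38 kinetochore and spindle genes ("mut" is the single mutant, "double" the double mutant). The share of htp-2 is 24 and 25.5% in the double mutant against 16.2 to 19.3% elsewhere, and the last share stays between 14.7 and 16.7%.

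A wider list of 61 other meiotic genes covers the remaining central region proteins, cohesin, homologue pairing, break formation and crossover genes. Of these 39 were tested. Whether each passed the filter on low counts in every genotype was not checked, so some may have entered through the genotype in which they were high. In the single mutant against WT 13 were higher and 5 lower (35 and 0 scaled to library totals, 7 higher by DESeq2), with a median log2 fold change of 0.27. Of all tested genes 22.1% were called higher and 36.6% lower (63.9% higher scaled to library totals, 9.07% by DESeq2). Reads rose at him-17, which encodes a chromatin protein needed for breaks (65.5 ± 3.82 to 152 ± 34.4 CPM, SD, n = 2 each), at the cohesin gene scc-3 (119 ± 7.08 to 214 ± 7.56 CPM) and at him-6, the gene of the worm BLM helicase (162 ± 3.49 to 265 ± 7.72 CPM). They fell at rec-1, which encodes a protein that sets where breaks and crossovers form (200 ± 23.5 to 91.9 ± 18.2 CPM), at the nuclease gene slx-1 (74.8 ± 14.7 to 37.3 ± 2.86 CPM) and at him-8, the gene of the X pairing centre protein (82.5 ± 13.1 to 48.9 ± 3.2 CPM), but these log2 fold changes of −1.19, −1.02 and −0.79 became 0.00, 0.17 and 0.40 when scaled to library totals.

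In the double mutant against WT 23 of the 39 were higher and 4 lower (35 and 1 scaled to library totals, 15 higher by DESeq2), with a median of 0.57. Of all tested genes 26.8% were called higher and 37.9% lower (55.4% higher scaled to library totals, 14.1% by DESeq2). Reads rose at syp-4, which encodes another central region protein (137 ± 9.43 to 317 ± 22 CPM; log2 fold change 1.21, SE 0.13), at the polo-like kinase gene plk-2, which acts in pairing and synapsis (179 ± 13.1 to 371 ± 38.3 CPM; 1.05, SE 0.12), and at him-6 (162 ± 3.49 to 342 ± 65 CPM; 1.06, SE 0.12). They fell at rec-1 to 39.4 ± 18.7 CPM (−2.30, SE 0.19), at slx-1 to 25 ± 2.78 CPM (−1.55, SE 0.28) and at him-18, the gene of the worm SLX4 protein, from 35.2 ± 1.11 to 8.85 ± 4.88 CPM (−2.01, SE 0.44). The fall of slx-1 was not called when scaled to library totals (−0.45) or totals without F56H9.8 (−0.30), nor was that of him-18 (−0.92 and −0.76).

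Between the mutants 16 of the 39 were higher and 2 lower in the double mutant, with a median of 0.20. Of all tested genes 16.5% were called higher and 26.2% lower. The count higher was 7 with mitochondrial reads, 4 by DESeq2 and 3 with no filter, beside 8.38, 4.09 and 0.866% of all genes. Reads rose at syp-4 (1.19, SE 0.12) and plk-2 (1.04, SE 0.11), and at him-14, the gene of the worm MSH4 crossover protein (29.6 ± 9.93 to 96.1 ± 20.6 CPM; 1.58, SE 0.21). They fell at rec-1 (−1.11, SE 0.21) and him-18 (−1.39, SE 0.43), the latter not called without double-mutant library 2 (−0.91) or by DESeq2. By gene span, the germline gene nos-2 shares 1434 bases with him-14 on the opposite strand, so reads on him-14 may be uncertain. How much of this overlap is exonic was not computed. The gene nos-2 itself held 15 and 41 reads in the single mutant and 12 and 13 in the double mutant. Of the 61 genes, 22 were not tested.

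Kinetochore and spindle genes, which act in division in the same germ cells and embryos, were set beside the 9 genes. Of 29 tested from a list of 38, 13 were higher and 1 lower in the single mutant against WT, 20 and 0 in the double mutant against WT and 17 and 0 between the mutants. For these genes too, passage of the filter in every genotype was not checked. Of all tested genes 22.1, 26.8 and 16.5% were called higher and 36.6, 37.9 and 26.2% lower in the same order. Reads rose in the single mutant against WT at rod-1 (310 ± 16 to 517 ± 9.55 CPM, SD, n = 2 each), hcp-4, the worm CENP-C gene (344 ± 20.8 to 552 ± 10.1 CPM), and zyg-9, which encodes a microtubule-binding protein (335 ± 23.1 to 539 ± 11 CPM). They rose in the double mutant against WT at hcp-4 (to 687 ± 5.32 CPM), hcp-1 (441 ± 8 to 735 ± 12.8 CPM) and the checkpoint kinase gene bub-1 (365 ± 19 to 611 ± 68.5 CPM), and between the mutants at the centriole gene sas-4 (192 ± 8.4 to 349 ± 6.48 CPM), cyk-4 (164 ± 6.41 to 230 ± 1.18 CPM) and tac-1 (to 201 ± 18.5 CPM; log2 fold change 0.52, SE 0.13); the last pair was not called by DESeq2 (0.45 and 0.47). The gene lower in the single mutant was knl-2, which encodes a protein that helps load the centromere histone (193 ± 15.7 to 141 ± 2.51 CPM; log2 fold change −0.46, SE 0.13), but it was at 0.73 when scaled to library totals and at 0.40 with totals without F56H9.8, and it was not called without WT library 2 (−0.36). Medians of 0.24, 0.64 and 0.31 stood beside 0.25, 0.62 and 0.29 for the 7 axis and synapsis genes. With library totals 29 and 0 were called in the single mutant against WT, beside 63.9% of all tested genes called higher. The count higher between the mutants was 3 with mitochondrial reads, beside 8.38% of all tested genes. It was 1 by DESeq2 or with no filter, beside 4.09 and 0.866%. As a share that needs no scaling, the 9 genes held 16.7 and 15.6% of the reads of both lists in WT, 15 and 14.7% in the single mutant and 15.2 and 15% in the double mutant. The mean shares were 16.1 ± 0.778%, 14.8 ± 0.212% and 15.1 ± 0.141% (SD, n = 2 each).

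The tested genes outside the set whose 6-library profile of log2 CPM, centred on its own mean, lay closest to the mean profile of the 7 genes were mog-4 (Euclidean distance 0.116), dro-1 (0.12), oxy-4 (0.123), ego-1 (0.138) and npp-2 (0.14). Mean levels of mog-4 were 148, 162 and 209 CPM in WT, the single mutant and the double mutant, and those of ego-1, the gene of a germline RNA-dependent RNA polymerase, were 402, 432 and 571 CPM. Among the 7 genes him-3 was closest to their mean profile (0.167), and syp-2 was farthest (0.704). By rank of this distance among all tested genes, him-3 was at 15 and syp-2 at 1416. The rest ranged from 107 at syp-1 to 476 at htp-2. Many genes outside the set thus lay nearer to the mean profile than most of the 7 did.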

How the data were processed

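Small RNAs of whole worms were treated with PIR-1, linked at both ends, reverse transcribed, amplified and size-selected, per the labels' protocols. The tools named, per the submitters' processing notes, are cutadapt 4.9 and Bowtie 1.3.1, with the build WBcel235. No source used here states the counting program, strand use or treatment of multi-mapping reads. The authors deposited whole-number read counts per transcript for 6 untethered libraries (515300 to 1571194 reads). The reads on a transgene in 20 tethered libraries were not used here. Of 34325 identifiers, 33755 matched a transcript and 190 a sequence name of the Ensembl 115 annotation, 379 matched none, and 1 named no transcript and held 0 reads. Transcript counts were summed per gene; lengths are those of the transcript that held the reads.

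The test was that of edgeR 4.0.16, run in R 4.3.3 (quasi-likelihood F test, robust, TMM factors, 1 coefficient per genotype, 3 residual degrees of freedom moderated over all genes) on 5312 genes that passed its filter (minimum count 10, minimum total 15). P-values were adjusted over all of them by the Benjamini-Hochberg method. The SE is the absolute log2 fold change divided by the square root of F. Alternatives were other scalings, no filter, DESeq2 1.42.0, each library left out, a replicate block, fits of 2 genotypes and htp-1 with htp-2 as 1 gene. Named genes were the 9 members, up to 3 genes per direction and comparison with the smallest p among other meiotic and among kinetochore and spindle genes, mut-16 and mut-2, genes overlapping a member and the 5 nearest profiles (log2 CPM, prior count 2). Members and lists were chosen with earlier results of these data known.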

Additional observations from a re-analysis of the deposited data

How the results depend on the processing

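No member was called lower under any of the alternatives. The counts of members higher in the single mutant against WT, in the double mutant against WT and between the mutants were 1, 6 and 3. In the single mutant against WT the count was 7 with library totals and 6 each with upper quartiles, with mitochondrial reads and with F56H9.8 left out of the totals, beside 63.9, 39.7, 32.6 and 55.3% of all tested genes called higher (22.1% with TMM). Between the mutants it was 7 with totals without F56H9.8 and 5 with upper quartiles, beside 38.2 and 24.2% (16.5% with TMM). With no filter on low counts the counts for the 3 comparisons were 6, 4 and 0, beside 10.8, 7.45 and 0.866% of all genes then tested. Scaling by median-ratio factors gave 1, 5 and 2, beside 21.4, 25 and 15%. DESeq2 gave 0, 2 and 1, beside 9.07, 14.1 and 4.09%, and a fit of only the 2 genotypes gave 5 for the single mutant, beside 29%. With 1 library left out, the median log2 fold change of the 7 was 0.10 to 0.29, 0.54 to 0.66 and 0.20 to 0.40. The rises of htp-3 and htp-2 in the double mutant against WT were called in all 16 and all 15 alternatives that tested them. The cause of the other moves was not tested.

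Among the members, directions turned only for fold changes that had not passed. The median of the 7 between the mutants was −0.03 with no filter. In the single mutant against WT syp-2 was at 0.83 with library totals, 0.50 without F56H9.8, 0.04 with upper quartiles and 0.02 unfiltered. In the double mutant against WT syp-2 was at 1.04, 1.19 and 0.47 under the same 3 scalings and 0.07 with mitochondrial reads, and from −0.25 to 0.08 with 1 library left out. Between the mutants htp-1 was at −0.02 with mitochondrial reads, and unfiltered htp-1 was at −0.18, rec-8 at −0.12, syp-1 at −0.05 and syp-2 at −0.03; syp-2 was at −0.03 without single-mutant library 2. Outside the members, calls that had passed turned too: rec-1, slx-1, him-8 and knl-2 were called lower in the single mutant against WT with TMM. With library totals rec-1, slx-1 and him-8 were at 0.00, 0.17 and 0.40 in this comparison, him-8 then being called higher (edgeR adjusted p = 0.0478). Without F56H9.8 him-8 was at 0.06. Under these 2 scalings knl-2 was at 0.73 and 0.40 and was called higher in both (edgeR adjusted p = 1.42e-08 and 0.00191).

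Of the 39 other meiotic genes, 7 to 35 were higher and 0 to 5 lower in the single mutant against WT (13 and 5 as reported), 15 to 36 and 1 to 4 in the double mutant against WT (23 and 4), and 3 to 31 and 1 to 3 between the mutants (16 and 2) under alternatives that kept all libraries. Kinetochore and spindle genes went from 9 to 29, 16 to 29 and 1 to 28 higher (13, 20 and 17). Under the same alternatives 9.07 to 63.9, 7.45 to 57.8 and 0.866 to 38.2% of all genes tested were called higher. No pairing by replicate number was seen: differences between the libraries of a genotype correlated between genotypes at −0.000684, −0.0161 and −0.0235 across 5312 genes. Since these differences were close to counting error in size, this check could not exclude a pairing. With a replicate block the members higher were 1, 6 and 2, beside 20.9, 26.3 and 15.9% of all tested genes. Between the mutants him-3 was then not called (0.32, edgeR adjusted p = 0.0598). With 46 WT reads on rec-8 and 6 each on syp-3 and spo-11, depth limits what can be said of these genes.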
